A study of Mus musculus with 586 samples.

Results

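Mesp1 and Mesp2 are neighbouring mouse genes that encode basic helix-loop-helix (bHLH) transcription factors. They were chosen by name, as 2 of the 23361 genes listed in every table, and both were read in all 473 libraries that could be matched to a sample. The libraries came from Geo-seq, an assay in which RNA is sequenced from small groups of cells cut by laser from cryosections of an embryo, so that each library has a known place. The embryos were C57BL/6 mice with no treatment or mutation named in the labels, at 5 stages of embryonic (E) days. There were 2 embryos with 22 libraries at E5.5, 2 with 22 at E6.0, 6 with 109 at E6.5, 2 with 101 at E7.0 and 6 with 219 at E7.5. A library is named by its section, counted from 1 at the distal tip, and by a region code. The labels do not spell the codes out, and they are read here as in the atlas published from this series. P and A are the posterior and anterior sides of the epiblast, and L and R its left and right sides. M is mesoderm, with MP and MA its posterior and anterior parts. EP and EA are posterior and anterior endoderm, and VE is visceral endoderm. The embryo was the replicate, and levels are given in FPKM, a read density scaled to transcript length and to the mapped fragments of the library.

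At gastrulation, cells of the posterior epiblast pass through the primitive streak, lose their epithelial contacts and emerge as mesoderm and definitive endoderm. Nodal, Wnt and BMP signals and the T-box factors Eomes and T act upstream of Mesp1 in the mouse streak, and Mesp1 marks the first mesoderm cells to leave it, among them the precursors of the heart. Mesp2 is best known from later stages, when it sets the boundaries of somites together with Notch signalling, and mouse embryos that lack both genes fail to form normal mesoderm. Like other bHLH factors, the MESP proteins bind E-box sequences as partners of the broadly expressed E proteins, and the Id proteins hold E proteins away from such partners.

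The pair lies on chromosome 7 of GRCm38, with no annotated gene in the 16938 bases between the 2 genes. Per the GENCODE vM21 annotation, Mesp1 (ENSMUSG00000030544.5, minus strand) spans chr7:79792241-79793788 and Mesp2 (ENSMUSG00000030543.10, plus strand) spans chr7:79810727-79813439. Each has 2 exons, which give transcripts of 1275 bases for Mesp1 and 1944 bases for Mesp2, with 729 and 1110 coding bases. The stretch in which the 2 transcripts are most alike holds 180 identical bases of 200, and it is shown because it lies in the coding sequence of both genes and bears on how well reads can be told apart. It covers coding bases 223 to 422 of Mesp1 and 232 to 431 of Mesp2, inside exon 1 of each. Capitals mark the 20 bases that differ.
Mesp1, chr7:79793106-79793305, minus strand: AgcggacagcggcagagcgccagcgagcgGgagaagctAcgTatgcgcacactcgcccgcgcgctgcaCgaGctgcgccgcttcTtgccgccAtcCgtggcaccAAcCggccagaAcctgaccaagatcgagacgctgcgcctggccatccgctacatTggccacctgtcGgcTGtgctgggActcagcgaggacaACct
Mesp2, chr7:79811160-79811359, plus strand: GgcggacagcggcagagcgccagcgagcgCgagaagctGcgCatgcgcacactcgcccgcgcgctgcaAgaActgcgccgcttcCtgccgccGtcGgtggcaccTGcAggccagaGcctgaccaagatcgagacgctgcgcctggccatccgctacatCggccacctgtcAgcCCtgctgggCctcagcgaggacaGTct
The longest run shared without a difference was 42 bases (Mesp1 chr7:79793148-79793189 and Mesp2 chr7:79811276-79811317), and 3 shared runs reached 18 bases or more. The read length was not given in the sources used here, so reads from this stretch may have been split between the genes, and the part of this in the Mesp2 values was not tested.

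The 250 bases before each start site were searched on both strands for motifs of the factors named above (sequences from RefSeq, GRCm38.p6, with 32851 promoters of the same length as the comparison). The Mesp1 window held 1 T-box motif (AGGTGT, present in 11.8% of all promoters), 2 TCF/LEF motifs (CTTTGA, the motif of the Wnt pathway's factors, in 13.8%) and 2 E-boxes (CANNTG, in 66.2%). The Mesp2 window held 1 E-box and none of the others. Neither held the motif of the Notch factor RBPJ (TGGGAA, in 21.6%) or of the Nodal pathway's FOXH1 (TGTGGATT, in 0.718%). The windows around the T-box and TCF/LEF matches of Mesp1 and the whole Mesp2 window are shown because these signals act on the streak in which both genes were read, with the motifs in capitals. The RefSeq start of Mesp1 lies 198 bases inside the GENCODE transcript, so the positions counted from it depend on the annotation. By GENCODE, both TCF/LEF matches and both E-boxes of Mesp1 lie inside exon 1, and the T-box match lies before its start. The RefSeq and GENCODE starts of Mesp2 agree, so the windows of the 2 genes are not alike in this.
Mesp1 T-box, 233 bases before the start, chr7:79793808-79793833, minus strand: taataaatgaAGGTGTaccctaagcc
Mesp1 TCF/LEF, 31 bases before the start, chr7:79793606-79793631, minus strand: ctcgagccggCTTTGAtatgctgatg
Mesp1 TCF/LEF in reverse, 72 bases before the start, chr7:79793647-79793672, minus strand: ctgctatggtTCAAAGggttcaggcc
Mesp2, chr7:79810477-79810726, plus strand: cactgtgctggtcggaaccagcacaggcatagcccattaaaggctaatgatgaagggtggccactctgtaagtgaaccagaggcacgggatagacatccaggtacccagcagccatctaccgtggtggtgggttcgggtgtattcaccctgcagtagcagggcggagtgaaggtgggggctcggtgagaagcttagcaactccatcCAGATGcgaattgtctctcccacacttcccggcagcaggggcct
A match is a description of letters and not a bound site.

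Libraries listed 2683 to 11319 genes at 1 FPKM or more (median 8949). The rough depth of the embryos' median libraries, read from the steps of low values, was 2.05 to 10.23 M reads (1 M = 1000000). At that depth 3 reads were worth 0.23 to 1.148 FPKM of Mesp1 and 0.151 to 0.753 FPKM of Mesp2, and values below these rest on very few reads. Since each library pools cells, fewer cells with a transcript and less of it per cell cannot be told apart. At E6.5 the summed FPKM of 11 visceral endoderm markers was 217 and more in EP and 122 to 10675 in EA libraries, against 3.68 to 422 in P and 6.52 to 186 in A libraries. In 4 of the 6 E6.5 embryos and in E7.5 embryo 3 no endoderm library was taken beside P and A.

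Before gastrulation neither gene was read in the epiblast beyond 1 library. Mesp1 was listed at 0 in all 10 P and 10 A libraries at E5.5, in all 8 P and 8 A libraries at E6.0 and in the 4 VE libraries at E6.0. Mesp2 was listed at 0 in all of these except 1 A library, section 3 of E5.5 embryo 2, with 7.63 FPKM. In these 4 embryos 3 reads were worth 0.834 to 1.1 FPKM of Mesp1 and 0.547 to 0.721 FPKM of Mesp2, so lower levels were not detectable.

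At E6.5, when the streak forms, both genes appeared in the proximal sections of P. The change of mean level in P from E6.0 to E6.5 did not pass for either gene, as given below with the other stages. In embryo 4, Mesp1 had 0.111, 0.216, 3.58, 0.143, 102 and 184 FPKM in P from section 2 to section 7, against 0, 0.182, 0.24, 0.127, 0.379 and 8.94 FPKM in A. In embryo 1, P had 0, 0, 0, 0.98, 33.1 and 115 FPKM over the same sections, against 0.147, 0, 0, 0.874, 2.15 and 0.256 FPKM in A. In both embryos the highest P values lay in sections 6 and 7, and the sections below held at most 3.58 FPKM in embryo 4 and 0.98 FPKM in embryo 1. The highest P library of the 6 embryos held 115, 172, 130, 184, 27.9 and 186 FPKM of Mesp1, and it was the most proximal section in all but embryo 5. Mesp1 was above 0 in 28 of 37 P libraries, against 18 of 37 A libraries. Mesp2 followed at a lower level, with 17 of 37 P libraries above 0, against 11 of 37 A libraries, and a highest value of 11.7 FPKM in section 7 of embryo 4.

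**Figure D1:**
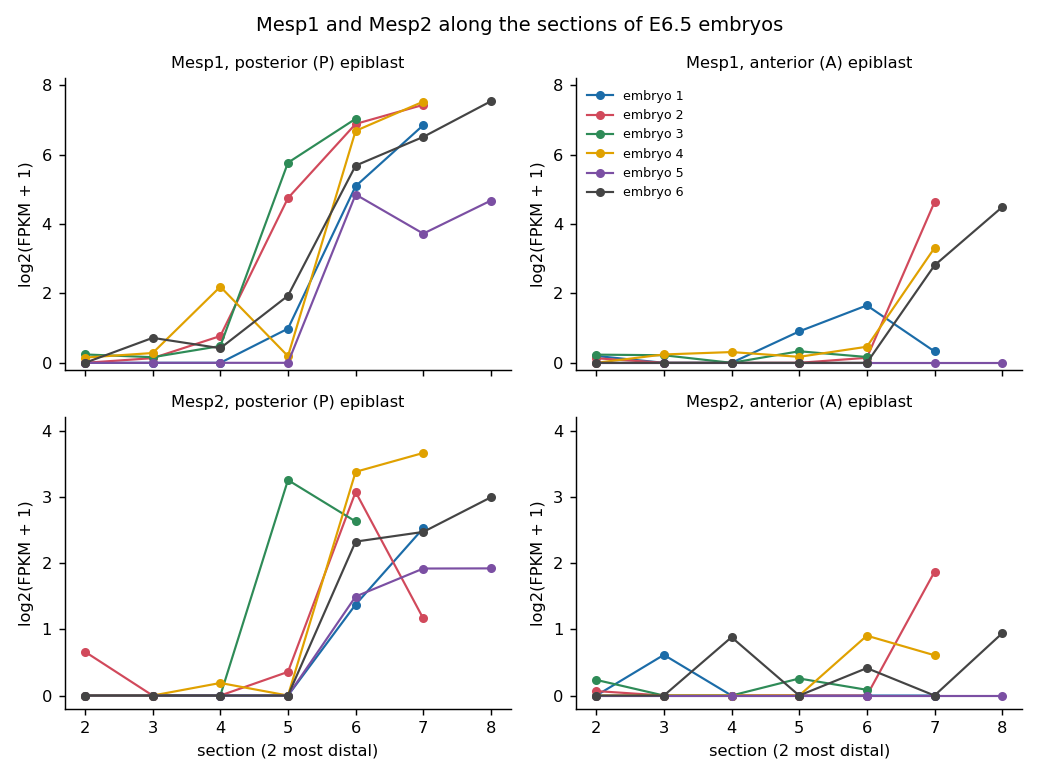
Mesp1 and Mesp2 at E6.5 by section in P and A, with 1 line per embryo. The level is log2(FPKM + 1), and section 2 is the most distal with separate P and A libraries. The lines of P leave the floor in the proximal sections of all 6 embryos, where Mesp1 reached 27.9 to 186 FPKM.

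The mean of Mesp1 per embryo was 24.8, 52.8, 36.9, 48.4, 9.25 and 47.2 FPKM in P, against 0.571, 4.00, 0.145, 1.64, 0 and 3.93 FPKM in A. The ranges of Mesp1 did not overlap, and the share of all genes for which this held was not counted. Mesp2 averaged 1.06, 1.59, 2.75, 3.54, 1.06 and 2.22 FPKM in P, and at most 0.450 FPKM in A. On the scale of log2(FPKM + 1), with the sections of an embryo paired, P exceeded A by 2.15 ± 0.51 for Mesp1 (SE, n = 6 embryos, adjusted p = 0.10 by limma) and by 0.78 ± 0.20 for Mesp2 (adjusted p = 0.14), with 6 of 6 embryos positive for each. Neither passed the threshold of 0.05 in this fit, in which all stages share 1 spread per gene, and 0.437% of all genes tested did. The E7.5 embryo 6 described below widens that spread. Without it the same differences had adjusted p-values of 0.000601 and 0.031. A mean over sections also counts the distal sections in which both regions were near 0.

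Along P, both genes rose towards the proximal end. With sections scaled from 0 at the distal to 1 at the proximal end, the slope of Mesp1 in P was 7.58 ± 0.51 log2 units (SE over 6 embryos, adjusted p = 4.87e-11 by limma), and the 6 embryos ranged from 5.64 to 8.78. The slope of Mesp2 was 2.90 ± 0.37 (adjusted p = 9e-06), and it did not pass without the embryos that lack endoderm libraries (2.93, adjusted p = 0.11). Both genes passed, as did 11.1% of all genes tested. In A the slope of Mesp1 was 1.79 and did not pass (adjusted p = 0.47), where 0.0276% of all genes did. The A libraries with most Mesp1 were the most proximal ones, with 23.8 FPKM in embryo 2, 8.94 FPKM in embryo 4 and 6.01 and 21.5 FPKM in the last 2 sections of embryo 6. T, a marker of the streak, had 30.2, 13.0, 5.10 and 18.005 FPKM in the same 4 libraries, and the part of streak cells in them was not tested.

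In the endoderm libraries at E6.5 Mesp1 was above 0 in EP of both embryos, and Mesp2 in EP of embryo 6 alone. In EP of embryo 6, Mesp1 had 57.8, 142 and 101 FPKM in sections 6 to 8, and Mesp2 had 0, 7.52 and 8.25 FPKM. In EP of embryo 5 Mesp1 was at most 4.50 FPKM, where 3 reads were worth 0.875 FPKM, and Mesp2 was listed at 0. In EA, Mesp1 was above 0 in 1 of 14 libraries, of embryo 5, with 0.446 FPKM, and Mesp2 in none. The 3 EP libraries of embryo 6 also held T at 7.69, 65.2 and 56.5 FPKM and a summed visceral endoderm signal of 5985, 2230 and 8740 FPKM. The summed FPKM of the epiblast markers was 225, 407 and 142 in them, although Sox2, a member of that list, was at 0, 1.07 and 0 FPKM. In EA of the same sections the epiblast sum was 206, 185 and 106 FPKM. The part of neighbouring streak or mesoderm cells in these libraries was not tested. Endoderm minus epiblast at E6.5 was -0.64 for Mesp1 (adjusted p = 0.0585) and -0.25 for Mesp2, and neither passed, in a contrast in which 67.8% of all genes did. EP minus EA did not pass for either gene at any stage: the log2 difference of Mesp1 was 1.75 at E6.5, 2.85 at E7.0 and 1.29 at E7.5, and that of Mesp2 was 0.60, 1.87 and 0.98. No gene passed in that contrast, where 1738, 643 and 353 genes had an unadjusted p under 0.05 in limma.

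At E7.0 both genes reached their highest levels of the series, in P and in the mesoderm. In embryo 2, Mesp1 in P had 2.80 and 15.6 FPKM in sections 1 and 2 and 150 to 774 FPKM in sections 3 to 11, with the highest in section 10. In embryo 1 it was listed at 0 in sections 1 to 3, had 10.5 and 15.3 FPKM in sections 4 and 5 and reached 273 FPKM in section 9. Mesp2 in P reached 65.7 FPKM in section 10 of embryo 2 and 36.3 FPKM in section 9 of embryo 1, the sections in which Mesp1 was highest too. The A libraries, taken in few sections, had at most 2.27 FPKM of Mesp1 and 0.201 FPKM of Mesp2. The L and R libraries had at most 8.00 FPKM of Mesp1 and 2.43 FPKM of Mesp2.

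**Figure D2:**
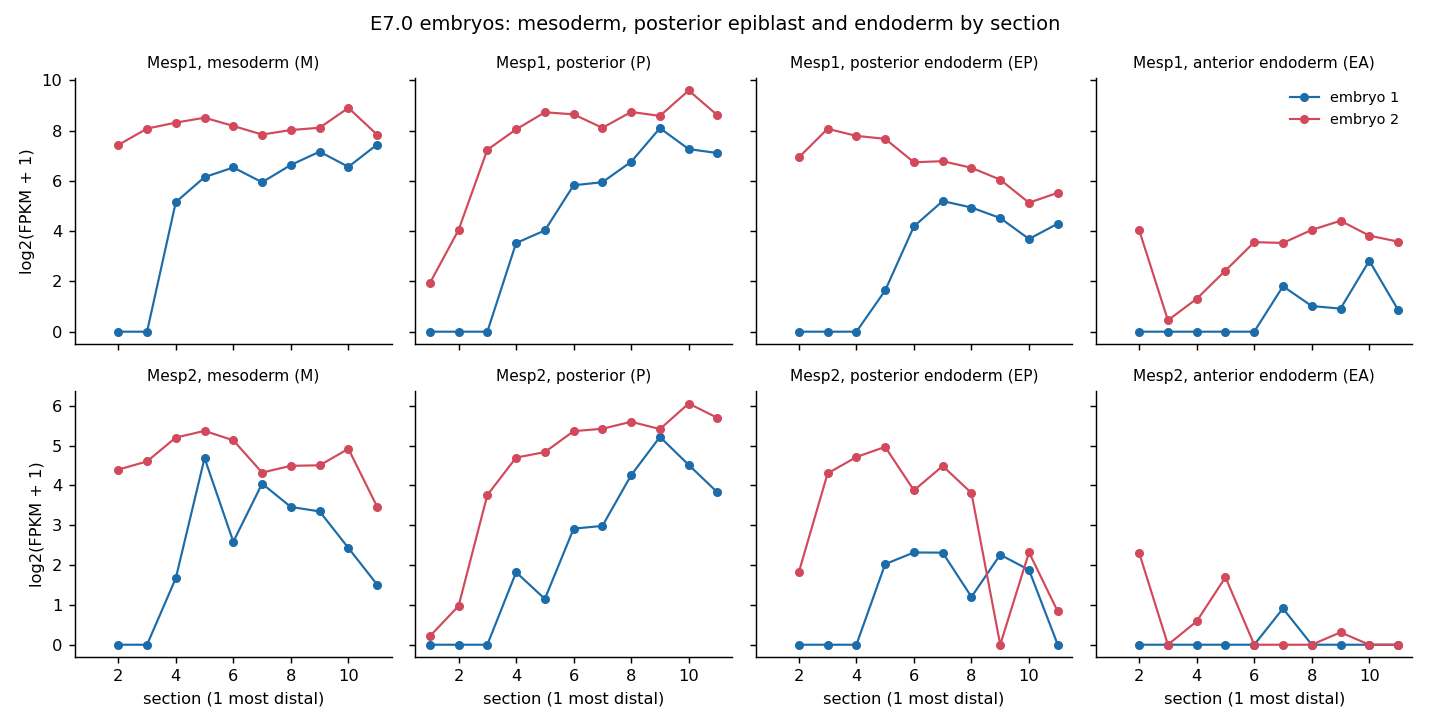
Mesp1 and Mesp2 at E7.0 by section in M, P, EP and EA, with 1 line for each of the 2 embryos. The level is log2(FPKM + 1), and sections are counted from 1 at the distal tip. Mesp1 reached 479 FPKM in M, 774 FPKM in P and 268 FPKM in EP but 20.3 FPKM in EA, and embryo 2 lies above embryo 1 in nearly all sections.

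In the paired sections P exceeded A by 5.26 ± 0.89 for Mesp1 (SE, n = 2 embryos, with 4.07 and 6.45, adjusted p = 0.00441 by limma) and by 3.13 ± 0.34 for Mesp2 (2.62 and 3.63, adjusted p = 0.000159). Both passed, against 2.3% of all genes tested. Without embryo 2 the difference of Mesp1 was 4.07 with an adjusted p of 0.12. With only 2 embryos the estimate of spread comes from all stages, and with the stage fitted alone neither passed (adjusted p = 0.57 for Mesp1 and 0.61 for Mesp2). The slopes in P were 7.17 ± 0.89 for Mesp1 and 5.21 ± 0.65 for Mesp2 (both with an adjusted p of 1.68e-05), where 3.12% of all genes passed. P minus the mean of L and R was 5.11 ± 1.39 for Mesp1 and 3.4997 for Mesp2 (both with an adjusted p of 0.48). No gene passed in that contrast, and 511 had an unadjusted p under 0.05.

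Both genes were read in the mesoderm of E7.0, and no difference from P passed the test. In M of embryo 2, Mesp1 had 172 FPKM at the least and 479 FPKM at the most, with a mean of 289 FPKM. In M of embryo 1 it was listed at 0 in sections 2 and 3, was 174 FPKM at the most and averaged 76.5 FPKM. M minus P was 0.20 for Mesp1 (adjusted p = 0.76) and -0.22 for Mesp2 (adjusted p = 0.51), and 0.0204% of all genes passed there. The places of the maxima differed. Mesp1 in M was highest in section 10 of embryo 2 and section 11 of embryo 1, near the proximal end, whereas Mesp2 was highest in section 5 of both embryos, with 40.4 FPKM in embryo 2 and 24.8 FPKM in embryo 1. This is a description of 2 embryos with no test, and neither slope in M passed (3.56 for Mesp1 and 0.64 for Mesp2, with 0.197% of all genes passing). The 2 embryos differed in it: the slope of Mesp1 was 6.76 in embryo 1 and 0.36 in embryo 2, and that of Mesp2 was 2.005 and -0.72.

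The mesoderm was also set against the endoderm. Mesp1 averaged 183 ± 150 FPKM in M and 37.9 ± 43.1 FPKM in the mean of EP and EA (SD, n = 2 embryos). The log2 difference was 3.28 ± 0.55 for Mesp1 and 2.28 ± 0.39 for Mesp2 (SE, both with an adjusted p of 0.0193 by limma), in a contrast in which 22.2% of all genes passed. Neither passed with no filter on low values (adjusted p = 0.12 for both), and Mesp1 did not without the pairing of regions within an embryo (adjusted p = 0.88). Endoderm minus epiblast was -0.15 for Mesp1 (adjusted p = 0.72) and -0.84 ± 0.26 for Mesp2 (adjusted p = 0.0135), where 36.8% of all genes passed. These were -1.001 for Mesp1 and -0.64 for Mesp2 in embryo 1, and 0.70 and -1.05 in embryo 2. The spread in endoderm minus epiblast came mostly from all genes together, as set out below for E7.5. Among EP libraries, embryo 2 had 34.1 to 268 FPKM of Mesp1 in EP, with the highest in section 3, and up to 30.3 FPKM of Mesp2 in section 5. Embryo 1 had at most 35.7 FPKM of Mesp1 in EP and was listed at 0 in sections 2 to 4. The summed FPKM of 10 nascent mesoderm markers was 20.6 to 356 in EP of embryo 2 and 6.99 to 53.6 in EP of embryo 1, and that of 11 visceral endoderm markers was 221 to 12217 in embryo 2 and 115 to 16661 in embryo 1. The part of mesoderm or streak cells in these libraries was not tested.

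Embryo 2 lay above embryo 1 in each of these regions. The mean of Mesp1 in P was 319 FPKM in embryo 2 and 73.9 FPKM in embryo 1, and after libraries were rescaled to an equal sum it was 524 and 205. In M the rescaled means were 510 in embryo 2 and 231 in embryo 1. So the gap was smaller after rescaling and did not close.

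At E7.5 most P libraries held little of either gene. Mesp1 averaged 7.60, 3.53, 7.19 and 104 FPKM in P of embryos 3 to 6, and Mesp2 0.243, 0, 0.476 and 4.66 FPKM. Embryo 6 stood apart from the other 3. In embryo 4, Mesp1 was listed at 0 in P sections 1 to 7 and had 2.81, 4.50 and 28.0 FPKM in sections 8 to 10, whereas embryo 6 had 21.7 FPKM at the least and 210 FPKM at the most, in section 10. In A, Mesp1 was above 0 in 11 of 37 libraries. The highest were the section 1 libraries of embryos 1 to 3, with 7.49, 5.22 and 5.79 FPKM of Mesp1, 0.617, 0.982 and 1.29 FPKM of Mesp2 and 1216, 238 and 299 FPKM of T.

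**Figure D3:**
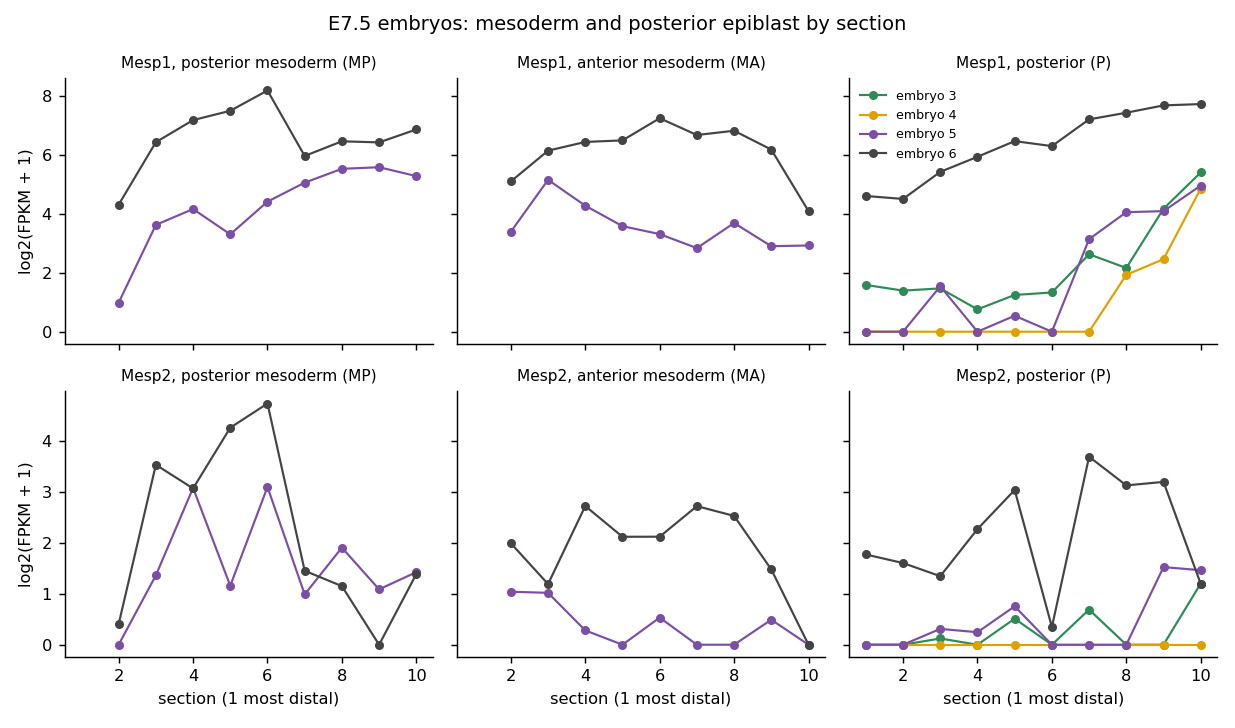
Mesp1 and Mesp2 at E7.5 by section in MP, MA and P, with 1 line per embryo (embryos 5 and 6 in MP and MA, 3 to 6 in P). The level is log2(FPKM + 1), and sections are counted from 1 at the distal tip. Mesp1 is highest in embryo 6 in each panel, where it reached 290 FPKM in MP, 151 FPKM in MA and 210 FPKM in P.

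P exceeded A by 2.67 ± 0.63 for Mesp1 (SE, n = 4 embryos, with 1.50, 0.82, 1.88 and 6.47, adjusted p = 0.00969 by limma). It did not pass with the stage fitted alone (adjusted p = 0.13) or without the embryos that lack endoderm libraries (3.05, adjusted p = 0.0723). For Mesp2 the difference was 0.59 ± 0.24 and did not pass (adjusted p = 0.12, positive in 3 of 4 embryos). In this contrast 12.9% of all genes passed. The slope in P was 3.98 ± 0.63 for Mesp1 (adjusted p = 0.00064, embryos from 3.43 to 5.17) and 0.67 ± 0.46 for Mesp2 (adjusted p = 0.31), where 9.34% of all genes passed. In embryo 6 the P libraries of sections 9 and 10 were the highest for Mesp1, at 204 and 210 FPKM.

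MP and MA were taken in embryos 5 and 6. Mesp1 averaged 24.5 and 118 FPKM in MP of these embryos, and 12.6 and 81.0 FPKM in MA. Mesp2 averaged 2.72 and 7.45 FPKM in MP, and 0.351 and 3.20 FPKM in MA. MP was above MA in both embryos for each gene, by 0.56 ± 0.32 for Mesp1 and 0.77 ± 0.37 for Mesp2, and neither passed (adjusted p of 0.998 and 0.90 by limma), while 0.536% of all genes did. In this contrast of 2 embryos at 1 stage, limma drew the spread from all genes together (9322 degrees of freedom). The SE and p-values of MP minus MA therefore do not measure the variation between the 2 embryos. Slopes were 2.32 in MP and -0.90 in MA for Mesp1, and -0.73 and -0.88 for Mesp2. None of these passed, with 0.436% of all genes passing in MP and 0.633% in MA. Mesoderm minus endoderm was 2.25 ± 0.55 for Mesp1 (adjusted p = 0.0337, 59.1 against 12.9 FPKM) and 1.00 ± 0.39 for Mesp2 (adjusted p = 0.10), where 15.9% of all genes passed. The call on Mesp1 was lost without embryo 5 (2.43, adjusted p = 0.20) and without embryo 6 (2.07, adjusted p = 0.49). MP minus P was 1.13 ± 0.40 for Mesp1 (adjusted p = 0.0543) and 0.56 for Mesp2 (adjusted p = 0.076), where 34.4% of all genes passed. The difference was 2.18 for Mesp1 and 1.09 for Mesp2 in embryo 5, and 0.072 and 0.019 in embryo 6. Endoderm minus epiblast was 1.43 ± 0.30 for Mesp1 on the log2 scale (SE, n = 2 embryos, with 1.47 and 1.40 over 3 sections each, adjusted p = 0.000986 by limma). In that contrast 18.9% of all genes passed, and the call was lost with embryo 5 alone at E7.5. The fit held 2 embryos at each of E6.5, E7.0 and E7.5 and had 32.0 degrees of freedom. Most of its spread was therefore drawn from all genes together, and its SE and p-values measure the variation between embryos only in part. The mean FPKM was lower in endoderm than in epiblast, at 16.8 FPKM against 28.5 FPKM. The mean of logarithms gives the many low libraries more weight than the mean of FPKM does.

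Between stages the change was clearest for Mesp2. From E6.0 to E6.5 the log2 level in P, on rescaled libraries, differed by 3.11 ± 1.14 for Mesp1 (SE, adjusted p = 0.40 by limma). For Mesp2 it differed by 1.23 ± 0.51 (adjusted p = 0.42). Neither passed, where 0.335% of all genes did, and that of Mesp1 passed without E7.5 embryo 6 (adjusted p = 0.00868). On libraries rescaled to an equal sum, the log2 level of Mesp2 in P was 3.02 ± 0.51 higher at E7.0 than at E6.5 (SE, adjusted p = 0.00267 by limma, with 1.14% of all genes passing) and 3.28 lower at E7.5 than at E7.0 (a difference of -3.28 ± 0.54, adjusted p = 0.00241, with 0.688% of all genes passing). For Mesp1 the same differences were 3.78 ± 1.14 (adjusted p = 0.21) and -3.43 (adjusted p = 0.56). Without E7.5 embryo 6 they were 3.78 (adjusted p = 0.000767) and -4.61 (adjusted p = 0.000113). Without E7.0 embryo 2, neither Mesp2 change passed (2.25, adjusted p = 0.31, and -2.51, adjusted p = 0.12). The excess of P over A in Mesp2 also changed, by 2.35 at E7.0 minus E6.5 (adjusted p = 0.0493, where 0.0525% of all genes passed) and by -2.54 at E7.5 minus E7.0 (adjusted p = 0.00735, 0.49% of all genes). The stages were averaged over unlike sections, with 5 to 7 per embryo at E6.5, 3 or 4 at E7.0 and 3 or 10 at E7.5. The part of this in the changes of P over A was not tested. The slope of Mesp2 in P changed by -4.54 at E7.5 minus E7.0 (adjusted p = 0.00727, 0.364% of all genes). Without E7.0 embryo 2 these 3 changes were 1.85 (adjusted p = 0.20), -2.03 (adjusted p = 0.0871) and -4.75 (adjusted p = 0.0625), and without E7.0 embryo 1 the change of slope was -4.34 (adjusted p = 0.14). The change of 2.35 in Mesp2 no longer passed in 11 of the fits with 1 embryo left out, among them each fit without an E6.5 embryo. At E7.5 minus E7.0 the slope of Mesp1 in P differed by -3.19 (adjusted p = 0.22). In the mesoderm at E7.5 minus E7.0, Mesp1 differed by -1.41 and Mesp2 by -2.31, and neither passed (adjusted p of 1.0 and 0.0653), where 0.384% of all genes did. The slope in P at E7.0 minus E6.5 differed by -0.42 for Mesp1 (adjusted p = 0.92) and by 2.31 for Mesp2 (adjusted p = 0.098), where 2.99% of all genes passed.

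**Figure D4:**
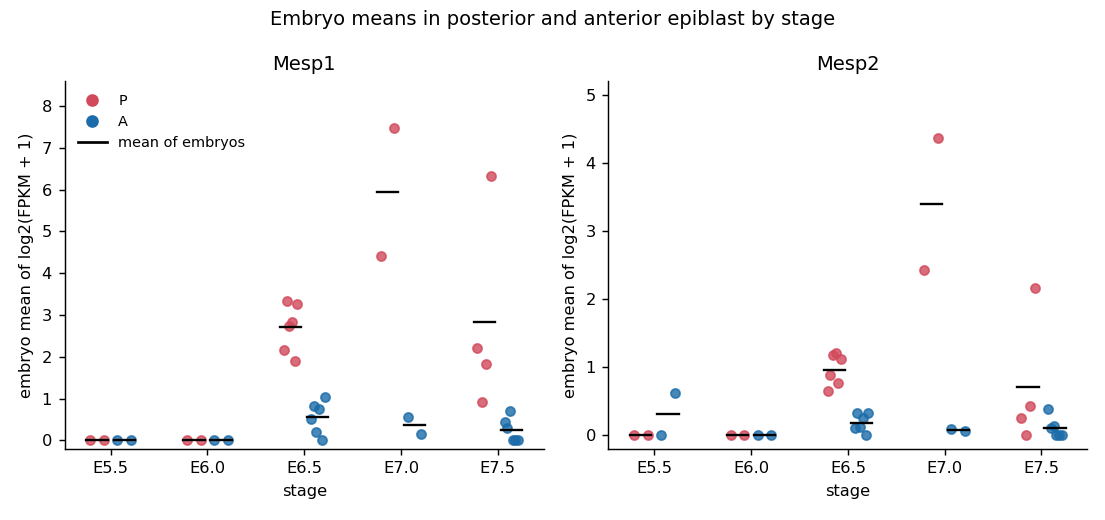
Mesp1 and Mesp2 in P and A by stage, with 1 point per embryo, its mean of log2(FPKM + 1), and a bar at the mean of embryos. Both genes were at 0 in P at E5.5 and E6.0, and the bar of P is highest at E7.0, over 2 embryos.

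In most libraries with either gene, Mesp1 was the more abundant. FPKM is per length, and the levels of the 2 genes are set beside each other on that basis. The annotation that gave the lengths was not known, and reads from the stretch in which the transcripts are alike may have been split. The part of either in these differences was not tested. In P at E6.5 Mesp1 exceeded Mesp2 in 28 of the 29 libraries with either gene above 0. The log2 difference averaged 1.74 ± 0.48 over embryos (SD, n = 6), positive in 6 of 6, with an exact two-sided sign-flip permutation p of 0.03125, the smallest that 6 embryos can give. At E7.0 it was the higher in 19 of 19 such libraries of P and 18 of 18 of M, and at E7.5 in 28 of 30 libraries of P and in 18 of 18 of both MP and MA. In EP, Mesp2 was the higher in 1 of 8 such libraries at E6.5, in 1 of 17 at E7.0 and in 2 of 18 at E7.5, and in M1 of E7.5 embryo 4 in 1 of 9. In A it was the higher in 5 of 21 such libraries at E6.5, 2 of 4 at E7.0 and 4 of 14 at E7.5. In P the ratio of mean FPKM ranged from 8.77 to 33.2 over the 6 embryos at E6.5, and was 9.90 and 7.62 in embryos 2 and 1 at E7.0.

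**Figure D5:**
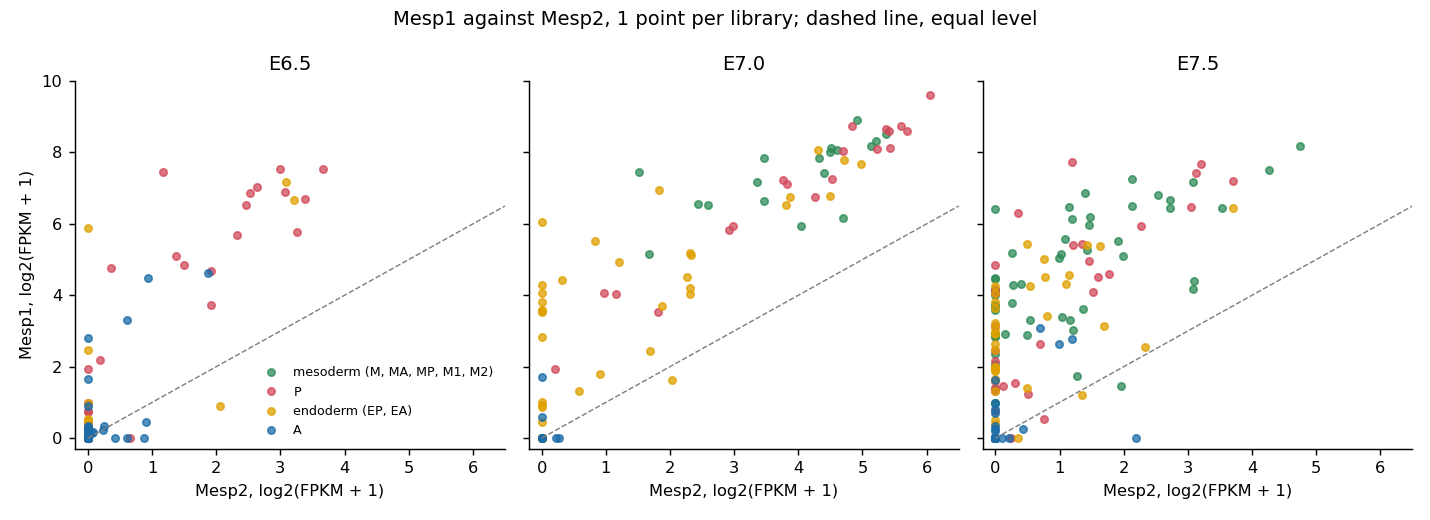
Mesp1 (vertical axis) against Mesp2 (horizontal axis) in each library, both as log2(FPKM + 1), in 1 panel per stage. The dashed line marks equal levels. Most points lie above it, on the side of Mesp1, among them 19 of 19 P libraries at E7.0 with either gene above 0.

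Several genes known to act upstream were higher in P as well. Of 19 primitive streak genes and upstream signals, 7 were higher and 0 lower in P than in A at E6.5, against 0.411% of all genes higher and 0.0262% lower, and the list's median was 1.01, against -0.01 over all genes. They included Mixl1, a streak homeobox factor (3.36 ± 0.30, adjusted p = 3.95e-05), Fgf8, an FGF ligand (2.42, adjusted p = 0.00217), Eomes (1.98, adjusted p = 0.00424) and T (2.43, adjusted p = 0.00432). At E7.0, 11 of the 19 were higher, against 1.38% of all genes, with a median of 2.22, against 0.05. T was at 5.94 there (adjusted p = 0.000147) and Mixl1 at 5.72 (adjusted p = 6.79e-05). Along P at E6.5, 12 of the 19 rose towards the proximal end, and none fell, against 10.7% of all genes that rose and 0.43% that fell, with a median slope of 2.15, against 0.40. The slopes of Mixl1 (6.86), T (6.54), Evx1, a homeobox factor (4.31), and Wnt3, the Wnt ligand needed to form the streak (3.38), stood beside 7.58 for Mesp1.

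Of the bHLH partners and inhibitors, none of 6 tested passed in P minus A at E6.5, where 0.437% of all genes did. At E7.0 Id3 was lower in P (-1.40, adjusted p = 0.0125 by limma), against 0.918% of all genes lower. Along P at E6.5, Id1 rose with a slope of 7.23 ± 0.47 (adjusted p = 4.14e-11 by limma) and Id2 with 3.52 (adjusted p = 6.43e-07), where 10.7% of all genes rose. So both inhibitors were higher in the proximal sections, as Mesp1 was.

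Of the genes of cardiac and early mesoderm, among them known targets of Mesp1, none of 16 tested was higher in P than in A at E6.5, where Snai1, a repressor of E-cadherin, came closest (1.78, adjusted p = 0.0853). At E7.0, 6 of 16 were higher, against 1.38% of all genes, with a median of 1.14, against 0.05 over all genes: Aplnr, the apelin receptor (3.16), Lefty2, a Nodal inhibitor (4.90), Prickle1, of the planar polarity pathway (2.29), and Snai1 (3.55) were those with the smallest p (adjusted p from 0.0013 to 0.0125). Along P at E6.5, 10 of 17 rose towards the proximal end, against 10.7% of all genes, with a median slope of 1.28, against 0.40 over all genes, and Snai1 led with 4.82 (adjusted p = 1.03e-08). That a list passed at one stage and not at another was not tested as a difference.

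Of 21 segmentation and Notch genes, the setting in which Mesp2 acts later, Axin2, a Wnt feedback inhibitor, was higher in P at E6.5 (1.14, adjusted p = 0.0338) and no other passed. At E7.0, 8 of 21 were higher in P, against 1.38% of all genes, with a median of 0.68, against 0.05 over all genes. Dll3 (2.28, adjusted p = 0.00443) and Dll1 (2.28, adjusted p = 0.00542), both Notch ligands, Epha4, an Eph receptor (1.48), and Pcdh8, a protocadherin (1.80), had the smallest p. Along P at E6.5, 4 of 21 rose, against 10.7% of all genes, so the share of the list lay near that of all genes. These were Axin2, Nkd1, Hes1 and Epha4, with slopes of 1.99, 1.80, 1.56 and 1.05.

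Genes of epithelial and mesenchymal state moved in both directions at E7.0, where 4 of 16 were higher and 3 lower in P than in A, against 1.38% of all genes higher and 0.918% lower. Fn1, fibronectin, was higher (1.96, adjusted p = 0.00542). Crb3, a polarity protein (-2.83), and the claudins Cldn6 (-2.12) and Cldn7 (-1.93) were lower. Of 9 epiblast markers 4 were lower in P at E7.0, namely Utf1 (-3.61), Slc7a3 (-3.29), Sox2 (-2.82) and Pou3f1 (-2.69), and 0 passed at E6.5, where Pou3f1 was at -1.10 (adjusted p = 0.0532). Of 7 nascent mesoderm markers tested, 4 were higher at E7.0, Tbx6 among them (2.41, adjusted p = 0.00924), and 0 at E6.5. Along P at E6.5, 5 of these 7 rose towards the proximal end, and of the 9 epiblast markers 1 rose, Nanog (1.05), and 3 fell, against 10.7% of all genes that rose and 0.43% that fell. The E7.0 values rest on 2 embryos, and of the 24 genes named by rule there, 16 no longer passed without embryo 2 and 10 without embryo 1. With the stage fitted alone, none of the 24 passed, nor did any other gene. Some genes, such as Snai1, stand in more than 1 list.

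Among markers of other tissues, those of definitive endoderm passed in P minus A at E6.5 more often than all genes did, and few others passed. Of the 5 definitive endoderm markers tested, Gsc (1.95, adjusted p = 0.0044) and Foxa2 (1.44, adjusted p = 0.032) were higher in P at E6.5 and none at E7.0, against 0.411% of all genes higher at E6.5 and 1.38% at E7.0. Of 11 visceral endoderm markers 0 passed at E6.5, and Trap1a was lower at E7.0 (-1.87, adjusted p = 0.0244), against 0.918% of all genes lower. No extra-embryonic or decidua marker passed in P minus A at these stages, of 6 tested in each list, and of 6 blood and endothelium markers Lmo2 was higher at E7.0 (2.36, adjusted p = 0.00592). In MP minus MA at E7.5, where neither Mesp gene passed, 0 of all genes tested were higher and 0.536% were lower. The 7 list genes that passed were lower too, among them Cer1 (-3.23, adjusted p = 1.38e-23) and Otx2 (-2.26, adjusted p = 3.48e-08), both known from anterior tissue, Ripply1 (-1.31) and Foxa2 (-1.45). None of the 7 passed with libraries rescaled to an equal sum or an equal median, or with no filter on low values. With 2 embryos at 1 stage, limma drew the spread in MP minus MA from all genes together (9322 degrees of freedom). The small p-values of Cer1 and Otx2 therefore do not measure the variation between the 2 embryos.

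Over the 429 libraries of E6.5, E7.0 and E7.5 the gene most like Mesp1 in its pattern was Mesp2, with a Pearson r of 0.814 on log2(FPKM + 1), among 10320 genes. The r was 0.872 within E6.5, 0.901 within E7.0 and 0.683 within E7.5. Reads from the stretch in which the transcripts are alike may have been split between the genes, and their part in this r was not tested. The next for Mesp1 were Fn1 (0.784), Dlc1 (0.761), Cdh11 (0.749), Pcdh7 (0.737), Lefty2 (0.732), Snai1 (0.722) and Fgf3 (0.703). For Mesp2 they were Lefty2 (0.801), Dlc1 (0.748), Cdh11 (0.729), Pcdh8 (0.716), Cbln1 (0.703), Fgf3 (0.701) and Adcyap1r1 (0.682). Of these, Lefty2 averaged 79.1 ± 62.0 FPKM in P and 0.233 ± 0.329 FPKM in A at E7.0 (SD, n = 2), and Cdh11, a mesenchymal cadherin, 8.47 ± 3.93 FPKM in P and 0.237 ± 0.0792 FPKM in A. These values describe the libraries and carry no p, since libraries of an embryo share their source and depth.

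Among the 5 annotated genes on each side of the pair, 1 had a like pattern by its Pearson r over the libraries. Anpep, which encodes aminopeptidase N and lies at chr7:79821803-79861059 on the minus strand, just beyond Mesp2, had an r of 0.676 with Mesp1 and 0.646 with Mesp2. Ticrr, Kif7, Plin1, Pex11a and Wdr93 on the side of Mesp1, and Ap3s2, Arpin, Zfp710 and Gm21057 beyond Anpep, had an r of at most 0.266 with either gene. Anpep was low, at 0.617 ± 0.236 FPKM in P and 0.266 ± 0.225 FPKM in A at E6.5 (SD, n = 6), and 1.31 FPKM in P and 0.123 FPKM in A at E7.0, and its mean was too low for a test of P minus A. Its slope in P was 1.01 ± 0.26 at E6.5 (SE, adjusted p = 0.0194 by limma, positive in 6 of 6 embryos), where 11.1% of all genes passed. It did not pass at E7.0 (1.52, adjusted p = 0.0646) or at E7.5 (0.52, adjusted p = 0.27). At E7.5 the slopes in P of Pex11a (1.42, adjusted p = 0.0473) and Zfp710 (1.00, adjusted p = 0.0424) passed, each positive in 4 of 4 embryos, where 9.34% of all genes passed.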

How the data were processed

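The libraries are Geo-seq samples of C57BL/6 embryos, cut by laser from cryosections per the labels. The deposited values are FPKM, which the authors made with Cufflinks 2.1.1 after alignment by TopHat2 2.0.8b to mm10, per the submitters' processing notes. Their gene annotation was not given in the sources used here. There are 18 tables, 1 for each embryo. A column was used where its embryo, section and region name 1 sample. This left out 113 of the 586 samples and 111 columns, most of them of E7.5, among them P of E7.5 embryos 1 and 2. L and R of E7.5 are from embryo 3 alone. E6.5 embryo 6 was taken from a table named for E6.0, with the stage the labels give. Codes E1, E2, M1 and M2 of E7.5 embryo 4 were described only. Nothing in the labels names the litters.

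In each embryo, regions were set against each other within sections on log2(FPKM + 1) and averaged. A pseudocount of 1 understates changes of low genes. Stages were fitted in limma 3.58.1 under R 4.3.3 (robust eBayes with a trend), with Benjamini-Hochberg adjustment over all genes with a mean of 1 FPKM or more in at least 1 stage, with a threshold of 0.05. Slopes needed 3 sections. Changes of level between stages used libraries rescaled to a sum of 1000000. Pairing follows from the shared animal. Within an embryo, the deviations of P and A from their stage means had an r of 0.66 to 0.889 across genes in E6.5 embryos and 0.456 to 0.752 in E7.5 embryos. The highest r between different embryos was 0.549 at E6.5 and 0.038 at E7.5. No 2 libraries held identical values, 4 had over 50% of their sum in 1 gene, and 760 genes were at 0 throughout. Depth was estimated from the steps of low values. The fits were tested on simulated data.

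Mesp1, Mesp2 and the gene lists were chosen with earlier results of these data known. The text names at most 4 genes per list, those of smallest p, the 8 genes most like each member and the 5 neighbours on each side. Coordinates are from GENCODE vM21 (GRCm38). Alternatives were pseudocounts of 0.1 and 5, no filter, rescaled libraries, stages fitted alone, no replicate block, only embryos with separate endoderm libraries, and each embryo left out in turn. Other software was Python 3.11.15 with pandas 2.3.3, numpy 2.4.6, matplotlib 3.10.9 and scipy 1.17.1.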

Additional observations from a re-analysis of the deposited data

Results flagged for a closer look

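The mean of Mesp1 in P of E7.5 embryo 6 was 104 FPKM, far from the 7.60, 3.53 and 7.19 FPKM of embryos 3 to 5. That of Mesp2 in the same libraries was 4.66 FPKM, against 0.243, 0 and 0.476 FPKM. The mean of Mesp2 in A of E7.5 embryo 1 was 0.52 FPKM, far from the other 5 embryos, and 1 library of section 9 with 3.55 FPKM carried most of it. Of 18 groups of embryos examined in this way 3 stood out. The rule flags about 1 in 20 where values are normally spread and groups independent, which does not hold here. Many values are 0, and the flags of Mesp1 and Mesp2 in P of embryo 6 come from the same libraries. So 3 of 18 cannot be set against that rate. Rescaling to an equal sum left embryo 6 at 186, against 14.3, 9.62 and 14.9 for Mesp1 in P of embryos 3 to 5.

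For Mesp2 the excess of P over A differed between stages, by 2.35 on the log2 scale at E7.0 minus E6.5 and by -2.54 at E7.5 minus E7.0, and its slope in P differed by -4.54 at E7.5 minus E7.0. These 3 differences were tested as such and passed in limma, with adjusted p-values of 0.0493, 0.00735 and 0.00727. The first no longer passed in 11 of the fits with 1 embryo left out, among them each fit without an E6.5 embryo. With a pseudocount of 0.1 none of the 3 passed (adjusted p of 0.194, 0.174 and 0.112 by limma). The sections averaged in P minus A were unlike between stages, and the part of this was not tested.

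Regions M1 and M2 of E7.5 embryo 4 entered no comparison. Mesp1 was above 0 in 9 of 9 libraries of M1, from 0.978 to 35.3 FPKM, and in 9 of 9 of M2, from 1.59 to 21.5 FPKM, whereas it was listed at 0 in the 3 A libraries of that embryo. Mesp2 was above 0 in 4 of 9 libraries of M1 and 2 of 9 of M2.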

How the results depend on the processing

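Values are log2 differences with adjusted p-values from limma in parentheses, for the 80 results on Mesp1 and Mesp2. Over the alternatives other than leaving out an embryo, 432 values kept their direction and side of the threshold, 27 no longer passed, 11 newly passed and 7 changed sign. The causes were not tested beyond what each setting changes by construction. With a pseudocount of 0.1, Mesp2 P minus A was 3.69 (0.194) at E7.0 minus E6.5, -3.53 (0.174) at E7.5 minus E7.0 and 0.16 at E7.5 minus E6.5. Mesoderm minus endoderm at E7.5 was 2.73 (0.0815) for Mesp1, endoderm minus epiblast of Mesp1 at E7.0 was 0.32, the change of the Mesp2 slope in P at E7.5 minus E7.0 was -6.27 (0.112) and that of its level -4.70 (0.0572). With a pseudocount of 5, MP minus P at E7.5 was 0.27 (0.0194) for Mesp2, mesoderm minus endoderm at E7.5 was 1.67 (0.0654) for Mesp1, endoderm minus epiblast at E7.5 was 0.53 (0.0574) for Mesp1 and -0.0014 for Mesp2, the change of slope at E7.0 minus E6.5 was 0.58 for Mesp1 and 2.02 (0.0206) for Mesp2, and the change of Mesp2 in mesoderm was -1.65 (0.0219).

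With no filter on low values, Mesp2 P minus A at E7.0 minus E6.5 was 2.35 (0.094). Mesoderm minus endoderm was 3.28 (0.123) for Mesp1 and 2.28 (0.123) for Mesp2 at E7.0 and 2.25 (0.152) for Mesp1 at E7.5, and endoderm minus epiblast was -0.84 (0.103) for Mesp2 at E7.0 and 1.43 (0.133) for Mesp1 at E7.5. With libraries at an equal sum, Mesp2 P minus A at E7.0 minus E6.5 was 2.77 (0.0652), mesoderm minus endoderm of Mesp2 at E7.5 was 1.40 (0.0408), and endoderm minus epiblast at E7.0 was 0.14 for Mesp1 and -0.83 (0.105) for Mesp2. With an equal median, the change of the Mesp1 slope at E7.0 minus E6.5 was 0.19. That setting was not run for P minus A, endoderm minus epiblast, EP minus EA and the level in P, where a library's median was 0. With each stage fitted alone, P minus A was 2.15 (0.000717) for Mesp1 and 0.78 (0.00437) for Mesp2 at E6.5, 5.26 (0.571) and 3.13 (0.613) at E7.0 and 2.67 (0.126) for Mesp1 at E7.5. Mesoderm minus endoderm of Mesp2 at E7.5 was 1.00 (0.00525), endoderm minus epiblast of Mesp1 at E6.5 was -0.64 (0.0214) and EP minus EA of Mesp1 at E7.5 was 1.29 (0.00807). Without the pairing of regions within an embryo (no replicate block), mesoderm minus endoderm of Mesp1 was 3.28 (0.875) at E7.0 and 2.25 (0.999) at E7.5, endoderm minus epiblast was -0.84 (0.283) for Mesp2 at E7.0 and 1.43 (0.927) for Mesp1 at E7.5, and P minus the mean of L and R at E7.0 was 5.11 (0.000102) for Mesp1 and 3.4997 (0.00137) for Mesp2. The block changed no other call on the 2 genes among the contrasts between regions, the only ones for which it was run. Without the embryos that lack separate endoderm libraries (embryos 1 to 4 of E6.5, embryo 3 of E7.5), P minus A of Mesp1 was 5.26 (0.0679) at E7.0 and 3.05 (0.0723) at E7.5, that of Mesp2 was 2.35 (1) at E7.0 minus E6.5 and -2.38 (0.3) at E7.5 minus E7.0, the Mesp2 slope at E6.5 was 2.93 (0.107) and the change of the Mesp1 slope at E7.0 minus E6.5 was 0.12.

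Leaving out each embryo in turn, 633 values kept their direction and side of the threshold, 27 no longer passed, 16 newly passed and 11 changed sign. Ranges follow for the results in which a value did so. Where a contrast held 2 embryos of a stage, such a fit left 1 embryo there, and the spread came from elsewhere. P minus A was -0.62 to 0.00 for Mesp2 at E5.5, 2.07 to 2.25 for Mesp1 and 0.72 to 0.82 for Mesp2 at E6.5, 4.07 to 6.45 for Mesp1 at E7.0, 1.92 to 4.30 for Mesp1 and 1.84 to 2.85 for Mesp2 at E7.0 minus E6.5, -0.75 to 1.13 for Mesp1 and -0.53 to 0.011 for Mesp2 at E7.5 minus E6.5 and -3.86 to -1.41 for Mesp1 and -3.04 to -2.03 for Mesp2 at E7.5 minus E7.0. Mesoderm minus P was 0.072 to 2.18 for Mesp1 and 0.019 to 1.09 for Mesp2 at E7.5 and -0.12 to 1.98 for Mesp1 at E7.5 minus E7.0. Mesoderm minus endoderm was 2.07 to 2.43 for Mesp1 and 0.57 to 1.42 for Mesp2 at E7.5. Endoderm minus epiblast was -0.68 to -0.60 for Mesp1 at E6.5, -1.001 to 0.70 for Mesp1 and -1.05 to -0.64 for Mesp2 at E7.0 and 1.40 to 1.47 for Mesp1 and -0.34 to 0.49 for Mesp2 at E7.5. EP minus EA was 0.00 to 1.19 for Mesp2 at E6.5 and -0.092 to 2.31 for Mesp1 at E7.0 minus E6.5. The slope in P was -2.09 to 1.26 for Mesp1 at E7.0 minus E6.5 and -4.75 to -4.32 for Mesp2 at E7.5 minus E7.0. The slope in mesoderm was 0.36 to 6.76 for Mesp1 and -0.72 to 2.005 for Mesp2 at E7.0 (M) and -1.78 to 0.32 for Mesp2 at E7.5 (MP). The change of level in P was 2.95 to 3.29 for Mesp1 at E6.5 minus E6.0, 2.46 to 5.11 for Mesp1 and 2.25 to 3.78 for Mesp2 at E7.0 minus E6.5 and -4.75 to -2.10 for Mesp1 and -4.04 to -2.51 for Mesp2 at E7.5 minus E7.0. The change of level in mesoderm was -3.26 to -1.35 for Mesp2 at E7.5 minus E7.0. Mesp1 minus Mesp2 in P at E6.5 was 1.60 to 1.86, and 5 embryos cannot give an exact permutation p under 0.0625. Without E7.5 embryo 6, P minus A of Mesp1 was 3.11 at E7.0 minus E6.5 (0.0202) and -3.86 at E7.5 minus E7.0 (0.00208). MP minus P of Mesp1 at E7.5 was then 2.18, the value of embryo 5 alone. Without E7.0 embryo 2, P minus A of Mesp2 was 1.85 (0.2) at E7.0 minus E6.5 and -2.03 (0.0871) at E7.5 minus E7.0. The change of the Mesp2 slope at E7.5 minus E7.0 no longer passed without E7.0 embryo 1 (-4.34, 0.139) or embryo 2 (-4.75, 0.0625).

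Counts of genes called moved more. P minus A gave 50 genes at E6.5 (0 to 140 over the alternatives other than leaving out an embryo), 263 at E7.0 (0 to 267) and 1480 at E7.5 (375 to 1483). The slope in P gave 1161 at E6.5 (72 to 2003), 326 at E7.0 (181 to 417) and 976 at E7.5 (86 to 862). Mesoderm minus endoderm gave 2202 at E7.0 (0 to 2885) and 1571 at E7.5 (0 to 4964), MP minus MA 50 (0 to 90), and mesoderm minus P 2 (0 to 1512) and 3376 (0 to 4533). Endoderm minus epiblast gave 7005 (2461 to 8224), 3807 (464 to 3771) and 1953 (323 to 1496). Leaving out 1 embryo moved these counts too, in fits that left 1 embryo in a stage and took the spread from the other stages. Without E7.5 embryo 6, mesoderm minus endoderm at E7.5 gave 9, MP minus P 166 and endoderm minus epiblast at E7.5 450. Without E7.0 embryo 2, M minus P at E7.0 gave 1673, P minus A at E7.0 99, endoderm minus epiblast at E7.0 1916, mesoderm minus endoderm at E7.5 4940 and the slope in M at E7.0 2512. Without E7.0 embryo 1 the last 5 gave 0, 73, 2257, 5190 and 1. Of the list genes named for the slope in P at E6.5, 11 no longer passed with libraries at an equal sum and 10 with an equal median, and 19 did not without the embryos that lack endoderm libraries. Of those named for P minus A at E6.5, 7 did not without these embryos. Depth limits all values below the worth of 3 reads, and at E7.0 the number of embryos, 2, limits every test.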
